A study of Homo sapiens with 17 samples.

Results

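The LIM homeobox genes *LHX1* to *LHX6*, *LHX8*, *LHX9*, *ISL1* and *ISL2* encode transcription factors that carry paired LIM zinc-binding domains beside a DNA-binding homeodomain. They are known for assigning cell identity in the embryo, with *ISL1* and *LHX3* in motor neurons, *LHX3* and *LHX4* in the pituitary, *LHX2*, *LHX5*, *LHX6* and *LHX8* in the forebrain, *LHX1* in the kidney and *LHX9* in the gonad. Their LIM domains bind the adaptor LDB1, which joins homeodomain proteins into larger complexes, and LMO proteins compete for that adaptor. In pluripotent stem cells (PSCs) such genes are mostly kept silent.

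The members were described in promoter Capture Hi-C (PCHi-C), which lists the contacts of captured promoter fragments, in Hi-C, and in CUT&RUN of H3K4me1, a histone mark of enhancers and promoter flanks. All cells came from H9 NK2, a single established human embryonic stem cell line. Naive PSCs had been kept in t2iL+PKCi, which holds PD0325901, CHIR99021, human LIF and the PKC inhibitor Gö6983, on Matrigel, and primed PSCs in TeSR-E8 on Vitronectin. There was 1 PCHi-C list per cell type, combined by the authors from 2 replicates, 1 Hi-C library per cell type, and 2 naive and 3 primed H3K4me1 libraries. The study's methods call the replicates biological, but no label says whether they came from separate cultures, so p-values measure only the spread between these libraries, which may be technical in part.

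Member baits were to be found by the gene names in the fourth column of the lists, but that column holds only a mark. They were therefore found as baited HindIII fragments that overlap a GENCODE promoter of a member, taken as the transcript start and the 1000 bp before it. All 10 genes had a baited fragment, and these were 11 of the 15982 baited fragments in the lists, since *LHX8* had 2 neighbouring baits. A captured fragment without a listed interaction is not among the 15982, so shares of all baits leave such fragments out. The main transcript start lay inside the bait for 8 genes. For *LHX8* and *LHX9* it lay downstream, and the baits held the starts of other transcripts. Another 10 fragments with a member promoter were not baited. The *LHX9* bait also holds the promoter of *C1orf53*, and the baits of *ISL1*, *LHX1*, *LHX2* and *LHX5* and the second of *LHX8* hold promoters of RNA genes, some of them antisense or divergent, so these contacts cannot be assigned to 1 gene.

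The H3K4me1 libraries held from 6.74 (naive replicate 2) to 26.6 M reads (primed replicate 3), and the Hi-C libraries 31310843 naive and 52056334 primed contacts. Correlations between libraries over fragments were 0.88 within the naive and 0.814 to 0.873 within the primed cell type, and 0.548 to 0.595 between them. Primed replicate 2 was the lowest primed library at the *ISL1* and *LHX8* baits. Of the naive markers with a bait, H3K4me1 at *DPPA5* fell by 2.78 ± 0.37 (SE) on the log2 scale in primed PSCs (limma, adjusted p = 2.5e-05). *KLF17* and *SUSD2* were lower in every primed library without passing the test (-0.61, adjusted p = 0.279, and -0.99, adjusted p = 0.0726). The primed markers *ZIC2* and *DUSP6* were higher in every primed library without passing it (0.61, adjusted p = 0.271, and 0.57, adjusted p = 0.329). *OTX2* and *SFRP2* had overlapping libraries. No baited fragment in the lists held a promoter of *TFCP2L1*, *DNMT3L* or *CD24*, which does not show that they were not captured.

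The LIM homeobox baits made more, and much longer, contacts in the primed list. The naive list held 109 interactions of the 11 baits and the primed list 177, a ratio of 1.62 with a 95% interval of 1.27 to 2.08 for counting error. Over all baits the ratio was 1.12, and over the 166 baits of other homeobox genes it was 2.31. No naive interaction of a member spanned over 1 Mb, while 48 of the 177 primed ones did (27.1%, 95% Wilson interval 21.1 to 34.1). Over all baits 1.68% of naive and 6.73% of primed interactions were that long, and over the other homeobox baits 2.49% and 27.0%. The primed share of long contacts was thus close to that of the other homeobox baits. At a score of at least 10 the ratio was 6.09, with 28 primed and 0 naive interactions over 1 Mb. The ratio at that score was not computed for other baits, so 6.09 has no background here. With 1 list per cell type no test between them was possible.

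Of the 11 baits, 9 had more interactions in the primed list, where 42.7% of all baits and 133 of the 166 other homeobox baits did. The 2 with more in the naive list were *LHX3* and *LHX9*, where 45.1% of all baits and 25 of the other homeobox baits did. A primed interaction over 1 Mb was listed for 7 baits (63.6%), those of *ISL1*, *LHX1*, *LHX2*, *LHX4*, *LHX5*, *LHX6* and *LHX9*. It was listed for 9.73% of all baits and 67.5% of the other homeobox baits, so the members were close to the latter. In the naive list 3.55% of all baits, 6.02% of the other homeobox baits and none of the members had one. The farthest naive partner of any member was that of *LHX6*, at 710.4 kb. Of the 232 interactions in either list, 54 were in both (23.3%, 95% Wilson interval 18.3 to 29.1). The share was 30.5% over all baits and 19.3% over the other homeobox baits. The share was 55.6% where both ends had to lie only within 10 kb, and 9.86% at a score of at least 10. Neither was computed for other baits. *LHX9* alone had 56 naive and 51 primed interactions, and without it the totals were 53 and 127, a ratio of 2.40. A read number here is the combined and rounded one of 2 replicates, neighbouring fragments often list the same contact, and intervals cover counting error only.

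**Figure D1:**
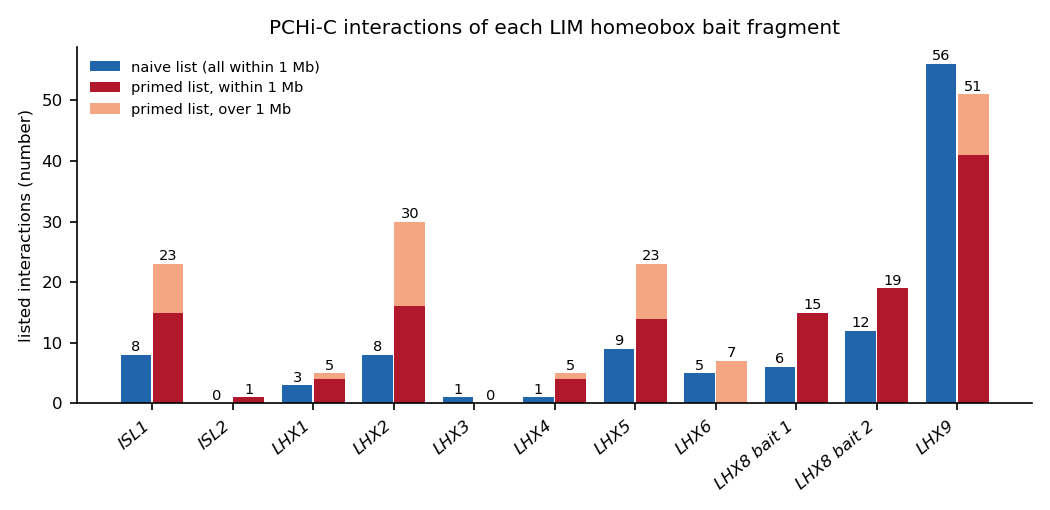
Listed PCHi-C interactions (number, vertical axis) of each of the 11 LIM homeobox bait fragments (horizontal axis), with the naive list in blue and the primed list in red, its interactions over 1 Mb in light red. The light part is absent from *LHX8* and is the whole primed bar of *LHX6* (7 of 7).

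The primed partners included other developmental promoters. A partner was counted as developmental if it overlapped a promoter in lists of homeobox, other developmental transcription factor and signalling genes. This held for 21 of the 179 primed bait-partner entries (11.7%, 95% Wilson interval 7.8 to 17.3), where an interaction between 2 member baits counts once from each end. It held for none of the 109 naive entries, which allows a share of up to 2.75% (3 counts of 109) or, as the upper end of the Wilson interval, 3.4%. Over all baits the shares were 1.26% in the primed and 0.569% in the naive list, and over other homeobox baits 13.3% and 1.07%. Of the 21 entries, 3 held another promoter of the same gene, 9 a promoter of another member and 9 a promoter of a gene that is no member, among them *LMX1B*, a LIM homeobox gene too. Among the 25 primed entries whose partner was itself baited, 12 were developmental. This share was not computed over all baits, so it has no background here. The 1.26% above is over all partners, baited or not, and is no match for it.

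**Figure D2:**
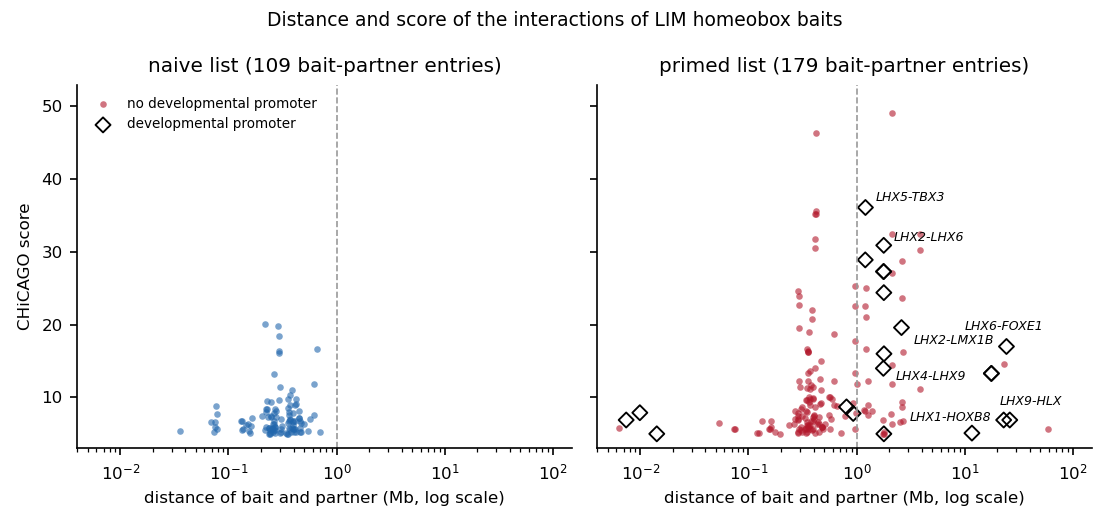
CHiCAGO score (vertical axis) against the distance of bait and partner (Mb, log scale) for the 109 naive and 179 primed bait-partner entries, with developmental partner promoters as diamonds and the dashed line at 1 Mb. The naive points end at 0.71 Mb with no diamond, while the primed diamonds beyond the line include *LHX5*-*TBX3* at a score of 36.1 and *LHX2*-*LHX6* at 30.9.

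*LHX2*, a regulator of eye, forebrain and hair follicle development, had the most long-range contacts of the family. Its bait (chr9:124005788-124013221, GRCh38, plus strand gene, with the transcript start inside) had 8 naive and 30 primed interactions, 6 of them in both lists. Of the primed ones, 14 spanned over 1 Mb. They led to *LHX6*, *LMX1B* and *FOXE1* and the fragments next to them, with 1 more partner at 2515.4 kb between *LHX2* and *LMX1B*. *LHX6*, a regulator of cortical interneurons, lay at 1.78 Mb. The bait of *LHX6* (chr9:122226721-122231568, minus strand gene) was contacted with 17 reads and a score of 27.3. The 3 unbaited fragments with *LHX6* promoters next to it were contacted too, with 17 reads and a score of 30.9, 14 reads and 24.4, and 10 reads and 16.0.

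Seen from *LHX6*, the picture was the same. All of its 7 primed interactions spanned over 1 Mb, and 6 of them led to *LHX2* and its neighbourhood. None of its 5 naive interactions did: these reached at most 710.4 kb and included fragments with the promoters of *TTLL11*, *NDUFA8* and *RBM18*. No *LHX6* interaction was in both lists. The primed Hi-C library had 31 contacts between the 100 kb bins of *LHX2* and *LHX6*, which was 3.91 times the mean of the chromosome at that distance. PCHi-C is captured from Hi-C library DNA, so this is not an independent measurement.

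The reference sequences just before the transcript starts of the 4 members that contacted one another in the primed list are shown because both ends of these contacts are promoters. They are RefSeq promoters of GRCh38.p14, printed 5′ to 3′ on the strand of the gene and ending at the base before a transcript start inside the bait, with each CG dinucleotide in capitals. The *LHX2* stretch is chr9:124011518-124011767 (plus strand), that of *LHX6* chr9:122228434-122228683 (minus strand), that of *LHX4* chr1:180230014-180230263 (plus strand) and that of *LHX9* chr1:197912245-197912463 (plus strand, its annotated UTR bases left out).
LHX2: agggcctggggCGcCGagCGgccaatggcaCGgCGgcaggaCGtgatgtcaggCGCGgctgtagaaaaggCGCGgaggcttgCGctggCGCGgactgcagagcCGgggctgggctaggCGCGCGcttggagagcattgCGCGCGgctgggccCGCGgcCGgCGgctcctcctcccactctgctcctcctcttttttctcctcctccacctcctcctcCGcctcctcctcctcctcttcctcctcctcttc
LHX6: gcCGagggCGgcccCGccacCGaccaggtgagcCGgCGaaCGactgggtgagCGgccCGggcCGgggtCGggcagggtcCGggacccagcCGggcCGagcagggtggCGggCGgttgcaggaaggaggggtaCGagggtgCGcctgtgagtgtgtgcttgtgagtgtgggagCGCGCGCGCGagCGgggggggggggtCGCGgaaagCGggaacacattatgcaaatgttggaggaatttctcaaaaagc
LHX4: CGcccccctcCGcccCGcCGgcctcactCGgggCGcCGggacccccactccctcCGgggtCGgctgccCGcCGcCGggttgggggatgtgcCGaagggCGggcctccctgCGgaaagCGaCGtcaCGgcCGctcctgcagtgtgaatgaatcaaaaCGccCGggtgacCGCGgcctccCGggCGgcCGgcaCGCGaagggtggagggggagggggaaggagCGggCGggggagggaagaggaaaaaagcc
LHX9: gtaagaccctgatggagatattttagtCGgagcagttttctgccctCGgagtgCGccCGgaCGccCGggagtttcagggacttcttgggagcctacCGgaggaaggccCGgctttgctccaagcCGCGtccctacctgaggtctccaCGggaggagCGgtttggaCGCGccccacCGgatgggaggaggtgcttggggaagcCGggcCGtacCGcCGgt

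In the 250 bases before these starts, CG (a motif that is the same on both strands) was found 25 times in *LHX2*, 27 times in *LHX6*, 30 times in *LHX4* and 20 times in *LHX9*. Of the 35116 RefSeq promoters, 21.6%, 17.7%, 12.4% and 32.4% held at least as many, and the median was 11. The *LHX6* stretch does not end at the main transcript start. Another RefSeq promoter inside the *LHX6* bait (chr9:122227542-122227791), not printed here, held 11 CG, and 50.3% of promoters held at least as many. The table held 14 promoters of 8 members, with a median of 22.5. The letters TAATTA, which read the same on both strands, were in none of these 14 and in 4.35% of all promoters.

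*LHX2* also contacted *LMX1B*, a LIM homeobox gene of limb, kidney and midbrain development that lies on the same chromosome. Its bait (chr9:126608734-126620809) was contacted at 2.61 Mb with 9 reads and a score of 19.6. In all, 7 *LHX2* partners lay in the body of *LMX1B*, and the highest score among them, 28.8, was that of chr9:126620810-126622808, an intronic fragment. The bait of *LMX1B* itself had no naive and 12 primed interactions, 7 of them over 1 Mb. Those 7 went to *LHX2*, to fragments between its promoters and to the neighbouring RNA gene *ENSG00000234921*. Hi-C between the *LHX2* and *LMX1B* bins had 23 contacts, 5.45 times the mean at that distance.

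The farthest *LHX2* partner was the bait of *FOXE1*, a forkhead gene of thyroid development, 26.15 Mb away (4 reads, score 6.9). *LHX6* contacted the same *FOXE1* bait at 24.37 Mb with 6 reads and a score of 17.0. Hi-C had 1 contact for the first pair and 6 for the second, where 0.192 and 0.216 would be the mean at these distances. *LHX2* thus listed contacts with all 3 of these genes in primed PSCs, while none was listed between the *LHX6* and *LMX1B* baits. *LHX6* shared 5 partner fragments with *LMX1B* (Jaccard index 0.36) and *LHX2* also shared 5 with it (0.14).

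Within 1 Mb, *LHX2* partners lay mostly in *DENND1A*, a large protein-coding gene upstream of it. There were 8 such partners in the naive and 14 in the primed list, 2 and 1 of them with an exon and the others intronic. All 6 *LHX2* interactions found in both lists were among them, at 448.7 kb and beyond. The one with the highest primed score, chr9:123542013-123543743, had 20 reads and a score of 15 in the primed list and 11 reads and a score of 5.3 in the naive list. At chr9:123554579-123558716 the naive values were the higher ones, with 14 reads and a score of 7.2 against 11 and 6.4.

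*LHX4* and *LHX9* also contacted each other, over 17.68 Mb of chromosome 1. The pair of baits (chr1:180226390-180234589 and chr1:197905482-197914165) had 5 reads and a score of 13.3 in the primed list, and was absent from the naive one. Hi-C had 1 contact there, where 0.488 would be the mean, so the Hi-C library cannot show a difference at this depth. *LHX4*, a pituitary and motor neuron factor, otherwise had short contacts, 1 in the naive and 4 in the primed list, of which the contact with the *ACBD6* promoter at 0.27 Mb was in both lists (23 naive reads at a score of 8.4, and 22 primed reads at 7.1).

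*LHX9*, a factor of gonad and forebrain development, had 26 interactions in both lists, 30 in the naive and 25 in the primed list alone. Of the 61 partners in *DENND1B*, its large neighbour, 53 were in the naive and 34 in the primed list. The naive-only partners lay nearer, with a median of 246.0 kb against 367.5 kb for those in both lists and 557.8 kb for those in the primed list alone. The highest primed score of the family, 49.1 with 27 reads, was that of *LHX9* with chr1:200034858-200037182, inside *NR5A2*, a nuclear receptor gene of liver and early embryo, at 2.13 Mb. Of the primed *LHX9* partners, 7 lay at or beside *NR5A2*, and Hi-C had 34 contacts there, 5.78 times the mean. *NR5A2* was not on the lists of developmental genes. At 22.97 Mb the bait of *HLX*, another homeobox gene, was contacted with 4 reads and a score of 6.9. The bait most like that of *LHX9* was its neighbour at *C1orf53*, which shared 35 primed partners (Jaccard index 0.58).

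*LHX5*, of forebrain development, listed 9 naive and 23 primed interactions of its bait (chr12:113471214-113477925, minus strand gene), with 2 in both lists. The naive ones lay within 393.3 kb. In the primed list the bait reached across to *TBX5* and *TBX3*, T-box genes of limb and heart. The *TBX3* bait (chr12:114681266-114685800) was contacted at 1.21 Mb with 64 reads and a score of 36.1, and the unbaited *TBX3* promoter fragment beside it with 26 reads and a score of 28.9. The *TBX5* bait at 0.93 Mb had 13 reads and a score of 7.8. *LHX5* and *TBX3* shared 7 primed partners (Jaccard index 0.16). Hi-C between the *LHX5* and *TBX3* bins had 37 contacts, 1.81 times the mean and 7.72 times it after dividing by coverage. At 59.48 Mb, *LHX5* contacted the bait of *MIR196A2* in the *HOXC* cluster with 3 reads and a score of 5.7, and Hi-C had 3 contacts there.

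*LHX1*, of kidney and early head development, had 3 naive and 5 primed interactions (bait chr17:36930716-36937603), with none in common. The primed partners included the bait of *HOXB8*, a homeobox gene of body axis patterning, at 11.68 Mb (3 reads, score 5.1). In the naive list the 2 unbaited *LHX1* promoter fragments were contacted by a bait with no annotated promoter at 0.28 Mb, with 27 and 32 reads and scores of 11 and 13.3.

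*ISL1*, of motor neurons, heart and pancreas, had 8 naive interactions, all of which were also in the primed list, and 15 more in primed PSCs (bait chr5:51382119-51388174). Shared contacts had more reads in the primed list, but read numbers are not scaled to the depth of a list. At chr5:50963533-50966268, 0.42 Mb upstream, there were 17 naive and 83 primed reads and scores of 9.8 and 46.3. At chr5:51958182-51958907 there were 11 naive and 12 primed reads, and the scores were 7.1 and 5.6. The long-range partners were not on the developmental lists. At 3.85 Mb they were *CCNO* (17 reads, score 32.5) and *MCIDAS* (10 reads, score 30.2), neighbouring genes of multiciliated cells. *ITGA1* and *PELO* lay at 1.4 Mb with 12 reads and a score of 8.2. Hi-C had 11 contacts between the *ISL1* and *CCNO* bins, 3.59 times the mean.

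*LHX8*, of cholinergic neurons, tooth and oocyte, had contacts in both cell types but none over 1 Mb. Its baits at chr1:75127944-75130156 and chr1:75130157-75133857 had 6 and 12 naive and 15 and 19 primed interactions, of which the primed ones shared 13 partners (Jaccard index 0.62). The median primed distance was 344.2 kb for the first and 348.4 kb for the second, and the farthest partner was the *RABGGTB* promoter fragment at 657.1 kb. *LHX3* and *ISL2*, which act in motor neurons, had hardly any: *LHX3* had 1 naive interaction with the *UBAC1* promoter fragment at 0.24 Mb (score 5.8) and none in the primed list, and *ISL2* had only 1 primed interaction, with *SCAPER* at 0.57 Mb (score 10).

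Of the 17 pairs of 100 kb bins that held the primed member interactions over 1 Mb, 15 had at least 2 times the mean Hi-C contacts of the chromosome at that distance (88.2%). Over all baits this held for 86.7%, so the share of the members was near the background. Values ran from 1.67 to 27.8 times, with a median of 3.84. After dividing by the coverage of the bins it was again 15 of 17, and 88.9% over all baits. The pairs of *ISL1* with *ITGA1* and of *LHX4* with *LHX9* then fell below 2, at 1.85 and 1.53. Those that were under 2 before, *LHX5* with *TBX3* among them, rose above it. The naive Hi-C file lists only 3 of these pairs, all within 1.3 Mb, and it leaves out many pairs at longer distance, so no comparison of cell types was made.

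H3K4me1 at the member baits was higher in primed PSCs for 5 of the 10 genes. Levels are the mean log2 RPM of the 500 bp tiles whose midpoint lies in a fragment. RPM is a read number scaled to the depth of the library. A fragment that holds no tile midpoint takes the tile over its own midpoint. The limma fit covered all 88413 fragments in the lists. Of the 11 baits 6 rose (*LHX1*, *LHX5*, *LHX6*, both of *LHX8* and *LHX9*) and none fell by limma, also at an unadjusted p under 0.05 (6 and 0), where 6.38% of all baited fragments rose and 15.1% fell. Without naive replicate 1 only 1 bait remained past the threshold, the first of *LHX8*, and without naive replicate 2 there were 2. These fits rest on a lone naive library, which is assumed to vary as the primed ones do.

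The first *LHX8* bait had the largest difference. Its naive libraries stood at -2.51 and -2.5 and its primed libraries at 0.43, -0.54 and -0.31, which was a difference of 2.37 ± 0.38 (SE, adjusted p = 0.00015 by limma). All primed libraries were thus above both naive ones. The second *LHX8* bait had -0.44 and -0.74 in naive against 1.35, -0.01 and 0.8 in primed PSCs (difference 1.3 ± 0.41, limma adjusted p = 0.027).

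At *LHX9* the naive libraries stood at -2.16 and -2.1 and the primed ones at -0.19, -0.36 and -0.6 (difference 1.75 ± 0.36, limma adjusted p = 0.00128). *LHX5* had -0.86 and -0.74 against 0.8, 0.61 and 0.43 (1.41 ± 0.36, limma adjusted p = 0.00732). *LHX6* was low in both cell types, with -2.0 and -1.52 against -0.58, -0.31 and -0.61 (1.26 ± 0.36, limma adjusted p = 0.0153). *LHX1* had -0.31 and -0.36 against 0.95, 0.84 and 0.78 (1.19 ± 0.36, limma adjusted p = 0.0212). In each of these the 2 groups of libraries did not overlap.

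The other baits did not pass the test. *LHX2* had -0.33 and -0.32 in naive against 0.5, 0.06 and -0.01 in primed PSCs (0.51 ± 0.37, limma adjusted p = 0.403), with no overlap. *ISL1* had the highest naive level of the family, 0.77 and 0.63, and primed levels of 0.99, -0.16 and 0.38 on either side of it (-0.29 ± 0.4). *LHX3* was the 1 bait with all primed libraries lower, -1.28, -0.45 and -0.98 against -0.1 and -0.41 (-0.65 ± 0.38, limma adjusted p = 0.265). *LHX4* and *ISL2* had overlapping libraries, with differences of 0.52 ± 0.38 and 0.42 ± 0.45.

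**Figure D3:**
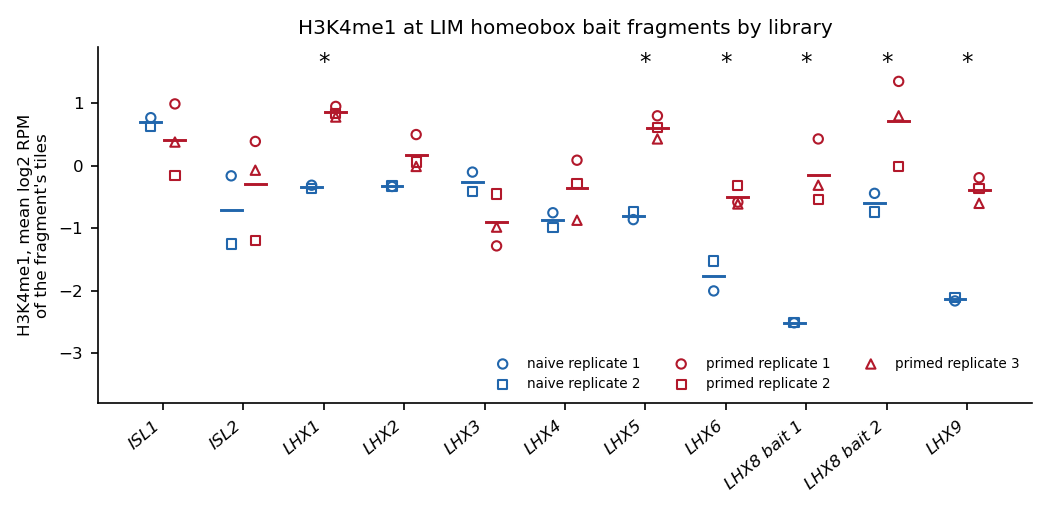
H3K4me1 (mean log2 RPM of a fragment's tiles, vertical axis) at the 11 LIM homeobox baits, each library a point, bars the means of 2 naive (blue) and 3 primed (red) libraries, and a star where the adjusted p was under 0.05. The naive points of the first *LHX8* bait, near -2.5, lie farthest below their primed points, and *LHX3* is the bait whose primed points all lie lower.

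Within the baits, 91 of 131 tiles had signal (above log2 RPM 0 in at least 2 libraries) and could be tested. A tile could pass this filter through the primed or the naive libraries alone, so counts among tested tiles are a description only. Of these tiles 36 rose and 4 fell, where 25.9% of all tested tiles rose and 26.1% fell. Without naive replicate 2 there were 19 that rose. All 4 that fell were in *LHX3*. By limma this count was 0 without naive replicate 1, naive replicate 2 or primed replicate 3 (0, 1 and 3 tiles at an unadjusted p under 0.05), and 8 without primed replicate 2. With no filter 36 of the 131 tiles rose and 0 fell by limma (10 fell at an unadjusted p under 0.05). Of all tiles in the bait, tested or not, 9 of 14 rose in *LHX5*, 7 of 17 in *LHX9* and 6 of 14 in *LHX1* under the filter. The largest difference was at a *LHX9* tile (chr1:197913501-197914000, 3.6 kb before the main transcript start), with -1.64 and -1.75 in naive against 2.5, 0.93 and 1.57 in primed libraries (3.36 ± 0.51, limma adjusted p = 0.000166). At *LHX1* it was a tile 6.2 kb before the start (3.08 ± 0.59, adjusted p = 0.000666 in the same fit), and at *LHX4* one 2.5 kb after it (2.13 ± 0.44, adjusted p = 0.00116). The largest *LHX3* difference, 5.4 kb after the start, was -2.02 ± 0.72 (adjusted p = 0.0282), and it lost its call without either naive library, without primed replicate 3 and without primed replicate 1 (-1.32). The largest tile differences of *ISL1* and *ISL2* did not pass the test (-1.3 ± 0.87 and 0.02 ± 0.73).

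Around several starts the primed libraries were higher in stretches that lay wholly or partly outside the bait. From 5 to 15 kb after the *LHX4* start, naive libraries averaged -2.3 and -1.8 and primed libraries 1.4, 0.41 and 1.01. From 15 to 5 kb before the *LHX1* start, the naive libraries averaged -2.5 and -1.68 and the primed ones 0.42, 0.46 and 0.5. *LHX5* was alike on its upstream side, with -2.01 and -1.85 against 0.66, 0.18 and 0.33. *ISL1* went the other way after its start, with 1.13 and 0.6 in naive against 0.44, -0.56 and -0.03 in primed libraries. These stretches were chosen for their values and were not tested.

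**Figure D4:**
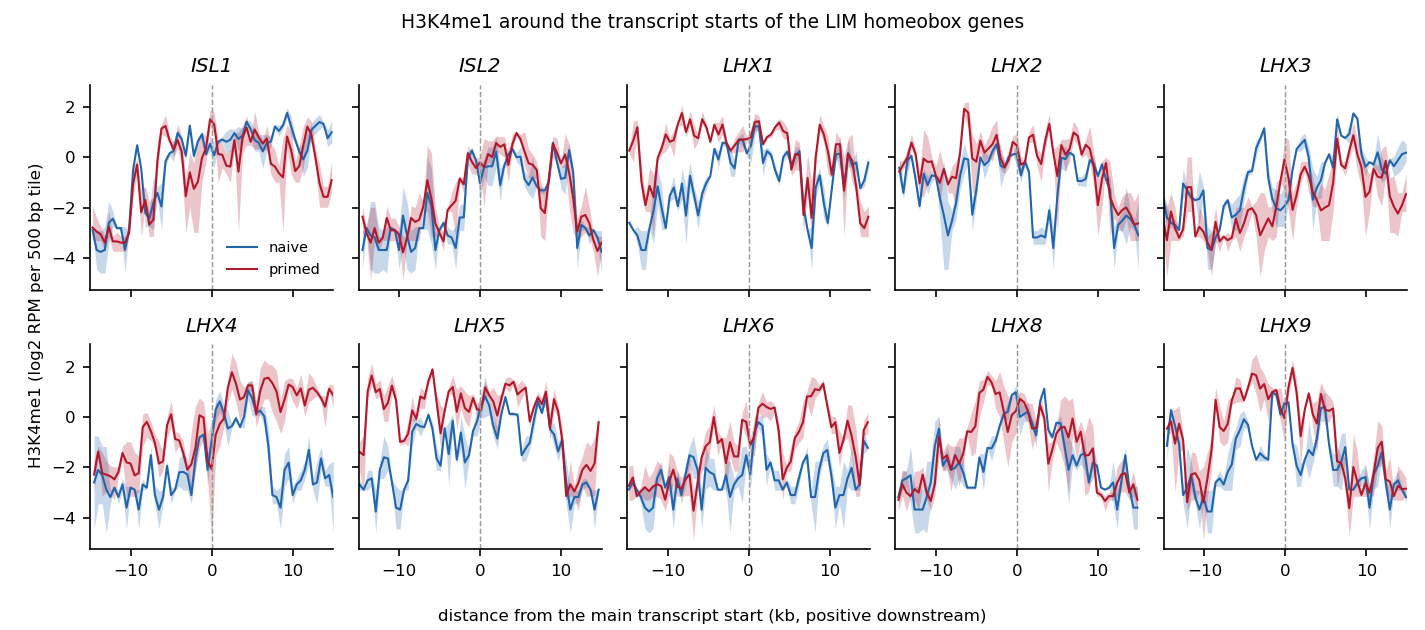
H3K4me1 (log2 RPM per 500 bp tile, vertical axis) against distance from the main transcript start (kb, positive downstream) for the 10 LIM homeobox genes, lines the mean and bands the range of 2 naive (blue) and 3 primed (red) libraries. The primed line lies above the naive one after the *LHX4* start and before the *LHX1* and *LHX5* starts, and below it around *LHX3*.

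The unbaited promoter fragments add to *LHX2* and *LHX6*. All 3 of *LHX6* rose, where 8.19% of all fragments did, the most at chr9:122218362-122222625, which had -2.26 and -1.95 in naive against 0.79, 0.61 and 0.47 in primed libraries (2.73 ± 0.36, limma adjusted p = 2.29e-05). *LHX2* rose at 2 of its 3 unbaited fragments, with 2.9 ± 0.37 at chr9:124013222-124014433 (limma adjusted p = 1.53e-05) beside its bait. Those of *LHX1*, *LHX9* and *ISL2* did not pass the test.

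The partners of the member baits were 212 fragments besides the baits, of which 45 rose and 15 fell in H3K4me1. In all fragments of the lists 8.19% rose and 13.2% fell. Together with the baits, 51 of 223 rose, and without naive replicate 1 or 2 these were 18 and 33. The 15 that fell with the baits included became 8 and 5. Of the 108 partners in the primed list alone, 30 rose (27.8%) and 2 fell, where 10.4% of the fragments that any bait had in the primed list alone rose. Of the 52 in the naive list alone, 12 fell (23.1%) and 4 rose, where 17.3% of the naive-only partners of any bait fell. Of the 52 in both lists, 11 rose and 1 fell, where 7.69% of such partners of any bait rose. A member partner was classed by its lists with the member baits, and the fragments of any bait by the lists over all baits. These classes are thus not matched exactly. Many partners are neighbours, so they are not independent.

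**Figure D5:**
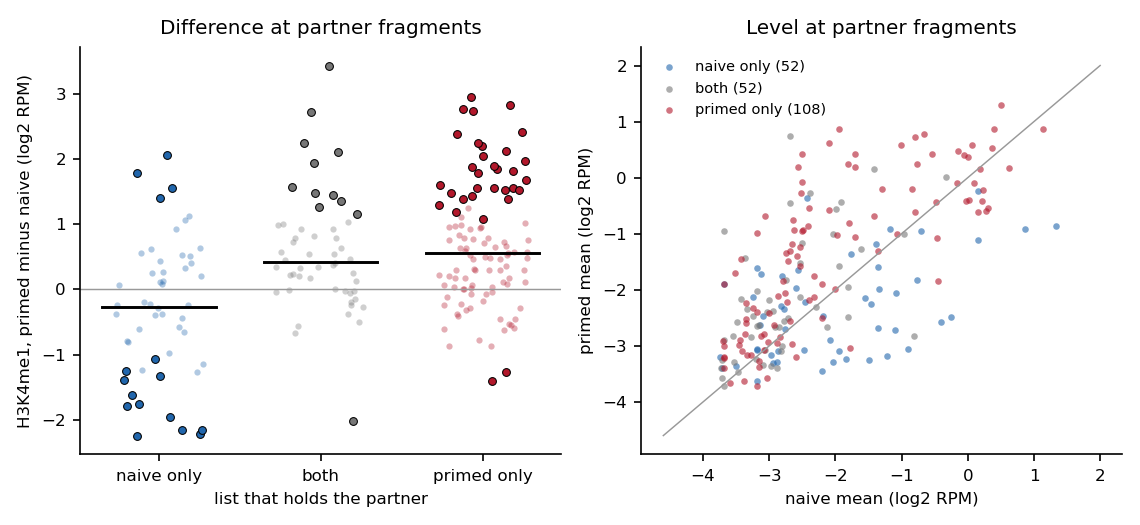
H3K4me1 at the 212 partner fragments, on the left the difference of primed minus naive (log2 RPM) by the list that holds the partner, with bars at the medians of -0.27, 0.42 and 0.56 and outlined points where the adjusted p was under 0.05, and on the right the primed against the naive mean. Outlined points lie mostly above 0 for primed-only and mostly below 0 for naive-only partners.

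*LHX2* had 12 of its 14 partners over 1 Mb among those that rose, all but the baits of *LMX1B* and *FOXE1*. Of the primed-only partners of any bait, at any distance, 10.4% rose. Over all members, 45 primed partners over 1 Mb were no member bait, and 14 of them rose (31.1%), most of them *LHX2* partners. The 12 were mostly neighbouring fragments at *LHX6* and in *LMX1B*, so they are not independent. Of its 7 partners in *LMX1B*, 6 rose, the most at the intronic fragment chr9:126620810-126622808 (-3.05 and -2.08 in naive against 0.48, -0.25 and 0.36 in primed libraries, 2.76 ± 0.4, limma adjusted p = 5.15e-05). The *LMX1B* bait had -0.72 and -0.79 against 0.4, 0.32 and 0.04 (1.01 ± 0.36, limma adjusted p = 0.0514). Of the 21 *LHX5* partners in the primed list alone, 6 rose, all within 1 Mb and around *TBX5*, whose bait had a difference of 1.89 (limma adjusted p = 0.000628). None of the 9 long-range partners of *LHX5* passed the limma test, and 1 had an unadjusted p under 0.05 (higher). The *TBX3* bait, for one, had levels of 0.23 and 0.49 in naive against 0.79, 0.27 and 0.52 in primed libraries, which overlapped (0.17 ± 0.37).

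For *ISL1*, 4 of the 8 partners in both lists and 2 of the 15 in the primed list alone rose. Over any bait 7.69% and 10.4% of such partners rose. All but 1 of the *ISL1* partners that rose lay 414.0 to 420.2 kb upstream, near the RNA gene *LINC02106*, and were neighbours. At chr5:50971080-50971288 the difference was 2.71 (limma adjusted p = 0.000138), with naive replicate 2 at the level of an empty tile (-2.91). None of the *ISL1* partners over 1 Mb passed the test.

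The largest rise of all was at a *LHX9* partner listed in both cell types, the intronic *DENND1B* fragment chr1:197541418-197542088. Its naive libraries stood at -2.45 and -2.91 and its primed ones at 1.38, 0.19 and 0.69 (3.43 ± 0.4, limma adjusted p = 7.71e-06). The -2.91 of naive replicate 2 is the level of an empty tile in that library, so the size of the difference depends in part on depth. Its reads in the lists were 27 naive and 23 primed, so it was listed in both cell types with similar read numbers. The *LHX5* partners that came next were chr12:114448874-114449233 at a promoter of the RNA gene *ENSG00000289101* (2.94 ± 0.39, limma adjusted p = 2.64e-05), and chr12:114392364-114393660 in *TBX5* (2.82 ± 0.45, limma adjusted p = 0.000146). The second lost its call without naive replicate 1 (difference 2.12). The first is 360 bp long and holds no tile midpoint. Its level is that of the tile over its midpoint, most of which lies in the next fragment, and naive replicate 2 was empty there (-2.91).

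The largest falls were at partners of *LHX9* and *LHX8*. Of the 61 *LHX9* partners in *DENND1B*, 9 fell and 6 rose, where 13.2% of all fragments in the lists fell and 8.19% rose. Both counts were thus near those shares of all fragments. All 9 that fell were among the 30 *LHX9* partners in the naive list alone, of which 0 rose. Over any bait 17.3% of naive-only partners fell. Many of the 30 are neighbours, so they are not independent. The fragment chr1:197692178-197694665 had -0.42 and -0.41 in naive against -2.46, -2.35 and -2.92 in primed libraries (-2.16 ± 0.36, limma adjusted p = 0.000214), and 70 naive reads at a score of 20.1. The fragments chr1:197664063-197664827 and chr1:197664828-197665673, which adjoin each other, had differences of -2.24 and -2.15. Without naive replicate 2 the second was -1.19 and lost its call. At this fragment primed replicates 1 and 2 stood at the level of an empty tile (-3.3 and -3.13), so the size of its fall depends in part on depth. For *LHX8*, chr1:74971614-74972452 had a difference of -2.21 ± 0.5 and chr1:74969297-74971613 one of -2.02 ± 0.38 (limma adjusted p = 0.00312 and 0.000625). The first of these lost its call without either naive library.

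Of the 12 other genes of LIM complexes (*LMX1A*, *LMX1B* and the cofactors *LDB1*, *LDB2*, *LMO1* to *LMO4*, *SSBP2* to *SSBP4* and *RLIM*), 9 had a baited fragment in the lists. At these baits H3K4me1 rose at none and fell at 2 by limma (1 and 3 at an unadjusted p under 0.05), where 6.38% of all baited fragments rose and 15.1% fell. *RLIM*, a ubiquitin ligase that acts on LDB1, fell by 2.73 ± 0.38 (limma adjusted p = 4e-05) and *SSBP3*, which stabilises LDB1, fell by 1.06 ± 0.37 (limma adjusted p = 0.0464). Contacts over 1 Mb were listed in the primed list for *LMX1B* with 7 and *RLIM* with 3, and in the naive list for *RLIM* with 1. *LDB2* had 3 naive and 11 primed interactions, *LMO4* 0 and 9, and *SSBP2* 28 and 16. The LIM-only gene *LMO1* had 9 and 7, and *LMO2* 1 and 1.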

How the data were processed

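PCHi-C, Hi-C and H3K4me1 CUT&RUN data of naive and primed H9 NK2 PSCs were used. ChIP-seq libraries (NANOG, SOX2, input) were not used. The PCHi-C lists come from read pairs that the authors had mapped to GRCh38 with HiCUP. CHiCAGO joined the pair of replicates of a cell type, and the authors deposited each interaction with a read number and a score of at least 5. For Hi-C, the authors deposited the contact count of each pair of 100 kb bins without normalisation. For H3K4me1, the authors deposited log2 RPM per 500 bp tile, after Trim Galore 0.5.0 and Bowtie2 2.3.2 per the labels. In these files an empty tile stands at 0.9 reads, so a difference from an empty tile depends on depth.

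Pairs listed from both baits were merged, and distance was taken between fragment midpoints. Promoters came from GENCODE release 44. The planned search by bait name was not possible, and neither was the alternative of partners by name, for which the promoters of baited partners were used. All 88413 fragments, and 465156 tiles with log2 RPM above 0 in at least 2 libraries, were compared with limma 3.58.1 (lmFit, eBayes with trend, R 4.3.3), with Benjamini-Hochberg adjustment over all of them and a threshold of 0.05. The fit was tested on simulated data. Hi-C contacts were divided by the mean of all bin pairs of the chromosome at the same distance, with unlisted pairs as 0. Wilson and exact binomial intervals of 95% cover counting error only. Python 3.11.15, pandas 2.3.3 and scipy 1.17.1 were used.

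The members, gene lists and tests were chosen with earlier results of these data known. Named are all members, the LIM complex genes, up to 5 developmental partner promoters of highest score per member and cell type, the tile of largest difference per bait, the 5 partner fragments of largest difference in each direction with libraries that did not overlap, and up to 2 baits per member that share at least 3 primed partners. Other partners were named after their values were seen. A single partner promoter that the rule names is not reported here. Alternatives were other score and read thresholds, equal list sizes, other limits of distance, quantile normalisation, a replicate block, other filters and leaving out each library, and, chosen after seeing the data, leaving out *LHX9*.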

Additional observations from a re-analysis of the deposited data

How the results depend on the processing

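With a score of at least 7, the primed over naive ratio of member interactions was 2.52, 36 primed interactions spanned over 1 Mb and 17.4% were in both lists. With a score of at least 10 the ratio was 6.09, 28 interactions spanned over 1 Mb, 9.86% were in both lists and 17.4% of primed entries were developmental. With at least 10 reads, 25 spanned over 1 Mb and 7.38% were developmental. A limit of 2 Mb left 25 long-range interactions. Counting both ends within 10 kb raised the share in both lists to 55.6%. Among baited partners 48.0% were developmental. Without *LHX9* the ratio was 2.40. The ratio with equal list sizes was 1.49. The naive list had no member interaction over 1 Mb under any of these settings, and 7 were over 500 kb. These settings were run for the member baits alone, so no value over all baits stands beside them.

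For H3K4me1, leaving out 1 library gave 18 to 58 baits and partners that rose and 5 to 18 that fell, 1 to 6 baits that rose, and among bait tiles 19 to 37 that rose and 0 to 8 that fell. The lowest counts came without naive replicate 1 or 2, and 0 tiles fell without either or without primed replicate 3. With only fragments that had signal, 9 fell. With a tile level above 1, 18 rose and 0 fell, as only 29 tiles were tested, and with no filter on tiles 36 rose and 0 fell (10 at an unadjusted p under 0.05 by limma). For the single fragments and tiles, a call was lost in 25 alternative fits, gained in 2 and kept or still absent in 248, and the sign changed in 5. The sign changed at the *ISL2* bait without naive replicate 2 (-0.12, range over left-out libraries -0.12 to 0.97). It also changed at its tile with the replicate block (-0.21), without naive replicate 2 (-0.33), without primed replicate 1 (-0.55) and without primed replicate 3 (-0.21), with a range from -0.55 to 0.82. Replicate numbers are shared between cell types but no label says that they mark a batch, and deviations of same-numbered libraries correlated at 0.069 and 0.178. With the replicate block 54 fragments rose and 16 fell, 6 baits rose, 30 bait tiles rose and 2 fell, and the largest *ISL1* tile difference passed the threshold (-1.72, adjusted p = 0.0496 by limma).

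Interactions rest on 1 list per cell type without replicates. Several of the longest have 3 to 6 reads, and Hi-C had 1 contact at 3 of the bin pairs, so that depth limits what can be said of them. An interaction that is not listed is not shown to be absent, since the lists begin at a score of 5. No expression was measured here.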
